A study of Saccharomyces cerevisiae with 16 samples.

Results

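The 8 genes of budding yeast that encode pyruvate decarboxylase (PDC1, PDC5, PDC6) and alcohol dehydrogenase (ADH1, ADH2, ADH3, ADH4, ADH5) were followed through 8 lists of H3K4me3 peaks, out of 6002 nuclear protein-coding genes. The genes were chosen by name. A peak was counted for a gene when it overlapped, by at least 1 bp, the gene body or the 500 bp on either side, which gave 94 of the 30753 deposited peaks, 10 to 13 in each list. Trimethylation of histone H3 at lysine 4 (H3K4me3) was profiled by CUT&RUN, which uses an antibody to bring a nuclease to marked nucleosomes and sequences the DNA released there. The sample titles, in contrast, name the assay ChIP.

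All strains were BY4741, a haploid laboratory strain, carrying a synthetic insert with the genotype synHPRT1R or synHPRT1 (called HPRT1R and HPRT1 here). The insert was carried by a YAC, a yeast artificial chromosome, or lay in chromosome XI. HPRT1 is named after a human gene, and the series title speaks of synthetic reversed sequence. The 4 groups of 2 libraries were HPRT1R YAC, HPRT1 YAC, HPRT1R integrated and HPRT1 integrated. YAC strains were grown in SC-Leu and integrated strains in YPD, a rich glucose medium, both at 30 °C, overnight and then for 6 hours from an optical density of 0.1 to about 0.6. The labels give no carbon source for SC-Leu. Configuration and medium therefore cannot be told apart, and no strain without synthetic DNA is among the samples. A further 8 samples with IgG antibody were not analysed here.

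Pyruvate decarboxylase turns pyruvate into acetaldehyde, and alcohol dehydrogenase reduces acetaldehyde to ethanol, the last steps of fermentation. Pdc1 and Adh1 are the main enzymes of cells growing on glucose, and Pdc5 is a second decarboxylase that is known to be induced when Pdc1 is missing or thiamine is short. Adh2 oxidises ethanol back to acetaldehyde and its gene is the classic example of glucose repression, while PDC6 is little used on glucose. Adh3 is mitochondrial, ADH4 responds to zinc shortage, and Adh5 is a minor isozyme. In yeast, H3K4me3 is laid down by the COMPASS complex and lies mainly over the early part of transcribed genes.

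The lists held 3463 to 4049 peaks, and native peaks (those on the 16 nuclear chromosomes) had a median width of 540 to 699 bp. A fold is the authors' own value for a peak, the observed over the expected pileup of reads at the summit. Folds were ranked only within a list, as percentiles among its native peaks. The pileup at each summit was solved for from the deposited fold and p-value, and this succeeded for 94 of 94 peaks. The peaks overlapping the windows of the 8 genes, some with summits outside them, had a summit pileup of 118 to 259 over an expected 76.2 to 112. A pileup of 118 has an exact 95% Poisson interval from 97.7 to 141, and one of 259 an interval from 228 to 293. These intervals cover counting error only. HPRT1 YAC replicate 2 has a cell line entry naming HPRT1R, against its title and genotype, and values without it are given where they matter. Each list also held 15 to 37 peaks on mitochondrial DNA, which has no histones, so that a called peak alone does not prove the mark.

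Of the 8 genes, PDC1, ADH1, ADH3 and ADH5 had a peak over the start of the gene (200 bp before to 500 bp after the annotated start) in all 8 libraries, PDC5, PDC6 and ADH2 in none, and ADH4 in 1. Among all protein-coding genes 66.5% were marked there in all 8 libraries and 14.8% in none. The share of the start lying under peaks was highest at ADH3, at 100% ± 0, followed by ADH1 at 92.3% ± 14.4, PDC1 at 64.7% ± 7.01, ADH5 at 45.7% ± 30.4 and ADH4 at 0.178% ± 0.504 (SD, n = 8 each). The values of ADH1 and ADH3 overlapped, as did those of PDC1 and ADH1 and of ADH5 and PDC1, while ADH5 lay above ADH4 in every library. The median gene had 65.03% of its start under peaks.

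By the wider window of the gene body plus 500 bp on either side, 7 of the 8 genes had a peak in every library and PDC5 in none. The same held for 78.2% and 7.76% of all genes. The wider window takes in peaks, or the edges of peaks, that lie at neighbouring genes: all peaks counted for PDC6, ADH2 and ADH5, and part of those counted for PDC1, ADH1 and ADH4, had their summits nearest the start of a neighbour, such as PIL1 at PDC6 and YME2 and UBP15 at ADH2. By the gene body alone, ADH1, ADH3 and PDC1 had a peak in all 8 libraries, against 64.6% of all genes, and PDC5, PDC6 and ADH4 in none, against 15.0% of all genes.

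**Figure D1:**
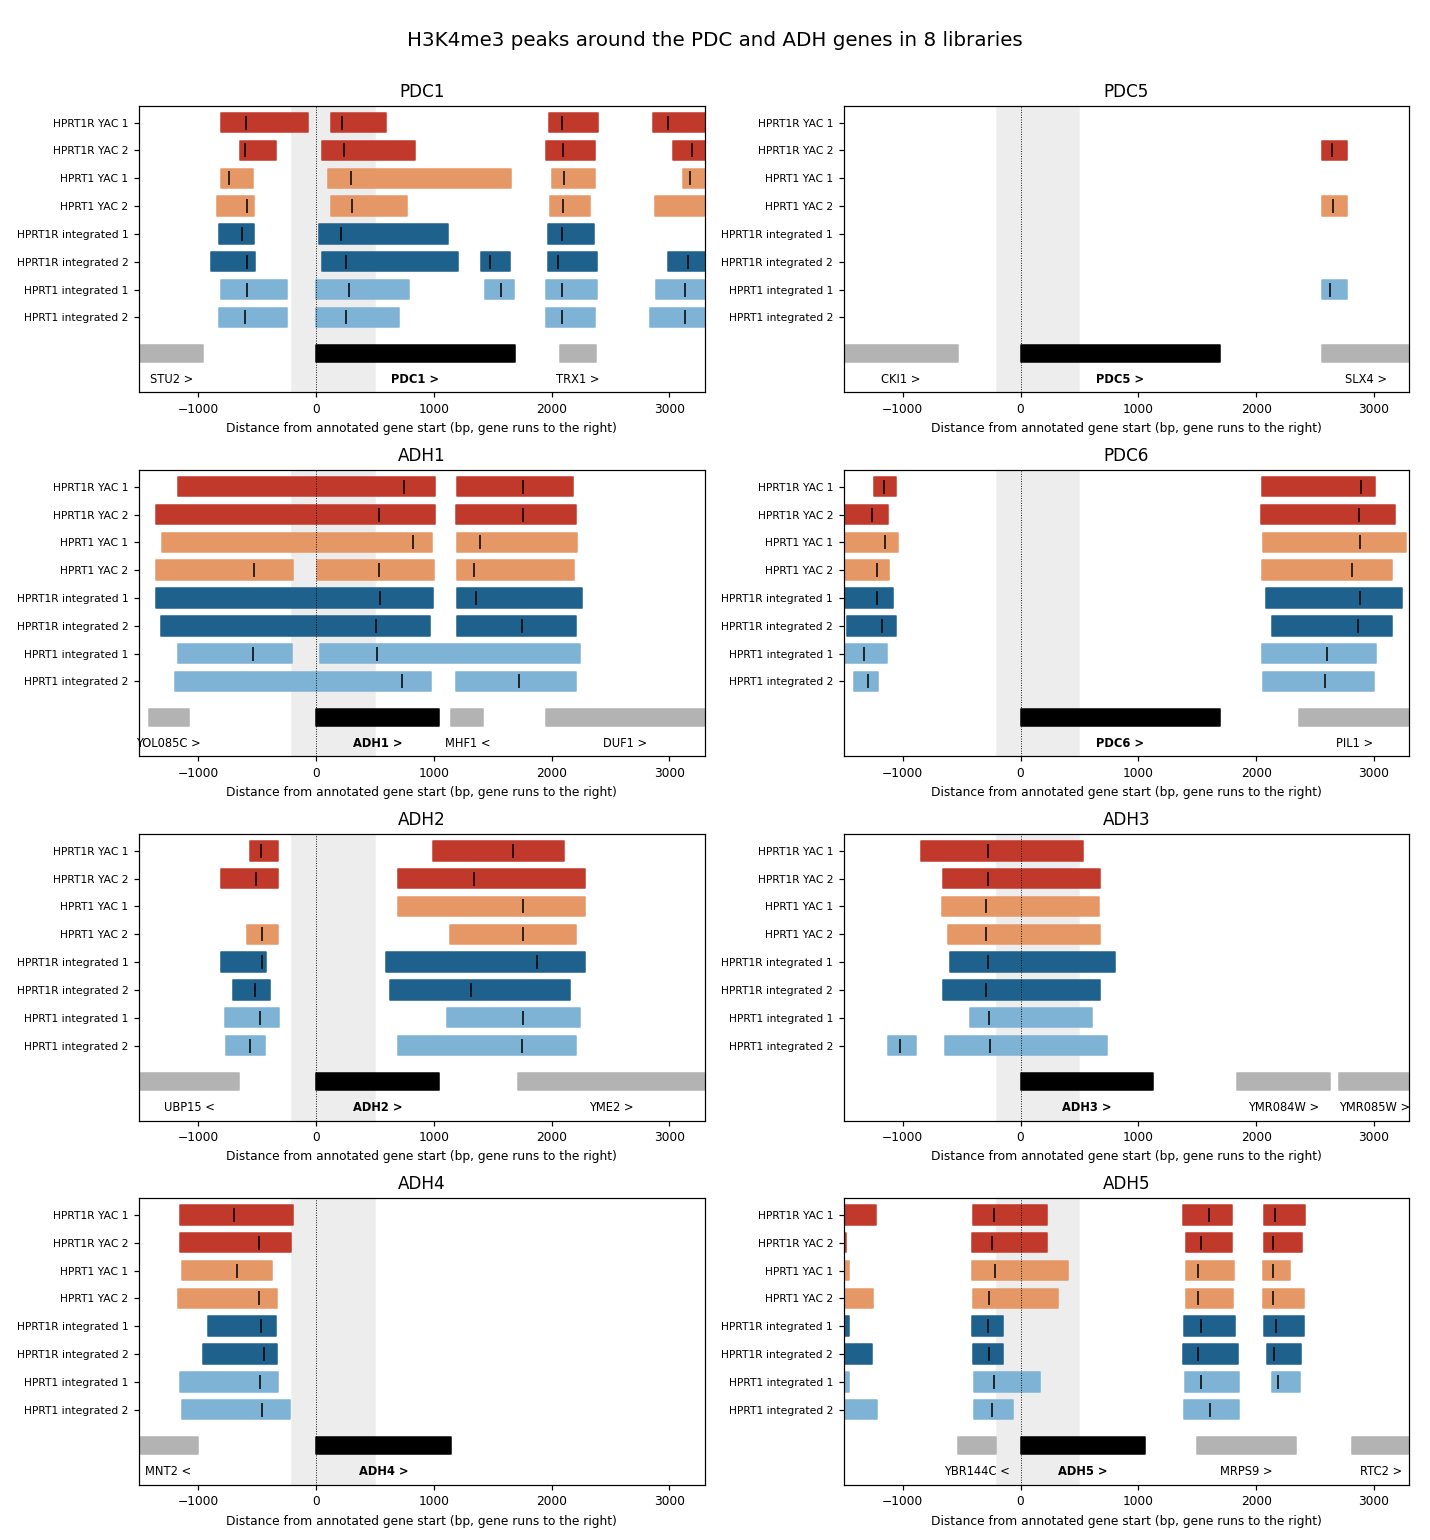
Called H3K4me3 peaks (bars, coloured by group, with the summit as a black tick) by library around each of the 8 genes; the horizontal axis is the distance in bp from the annotated start, the grey band is the start as counted in the text, and black and grey boxes are the gene and its neighbours, with > for the same and < for the opposite direction. Peaks reach into the grey band at ADH1, ADH3, ADH5 and PDC1 in every library, with the PDC1 peak beginning just inside the gene. A peak spans the annotated start itself in 8 libraries at ADH3, 6 at ADH1 and 5 at ADH5. PDC5, PDC6, ADH2 and ADH4 are bare from the start to at least 596 bp downstream.

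PDC1 (YLR044C, chromosome XII, 232390 to 234081, minus strand, coordinates of sacCer3) carried its mark inside the gene. Positions are given in bp from the annotated start, with negative values upstream. A peak began at 5 to 132 bp in each of the 8 libraries, with its summit at 214 to 303 bp. Across native peaks with a summit from -500 to 1000 bp of the nearest gene start, the median summit lay at 26 to 97 bp, depending on the library. The share of the gene body under peaks was 27.6, 46.3, 91.5 and 37.8% in the YAC libraries (HPRT1R replicates 1 and 2, then HPRT1 replicates 1 and 2), against 64.5, 82.4, 61.1 and 41.5% in the integrated libraries in the same order. The widest PDC1 peak, of 1549 bp in HPRT1 YAC replicate 1, covered most of the gene, and the narrowest, of 467 bp in HPRT1R YAC replicate 1, covered its first part. HPRT1R integrated replicate 2 and HPRT1 integrated replicate 1 had a further weak peak in the last part of the gene, with its summit at 1480 and 1571 bp. The groups overlapped.

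The strength of the PDC1 peak varied between lists. Its fold was 1.42 to 2.67, at percentiles from 6.66 in HPRT1R YAC replicate 1 to 77.0 in HPRT1R integrated replicate 1. A separate peak lay upstream of PDC1 in all 8 libraries, with its summit at -740 to -581 bp, in the stretch between PDC1 and the end of STU2. It reached into the 500 bp window in 4 libraries, so that counts in that window depend on where this peak ended. At the other end, the peak of TRX1, a thioredoxin gene, had its summit at 2055 to 2106 bp in all 8 libraries.

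PDC5 (YLR134W, chromosome XII, 410723 to 412414, plus strand) had no peak in its body or within 500 bp of it in any of the 8 libraries. The nearest peak upstream ended at -1921 to -1830 bp, inside the choline kinase gene CKI1. The nearest one downstream began at 2559 to 5122 bp. The gene thus lay in a stretch of 4403 to 6979 bp without a called peak. The weakest native peak of each list had a fold of 1.09 to 1.24. Where no peak was called the pileup is not recorded, so no upper limit can be set for PDC5.

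PDC6 (YGR087C, chromosome VII, 651290 to 652981, minus strand) also had no peak over its start or body in any library. The last 500 bp of its window held the edge of a peak with its summit 224 to 522 bp inside PIL1, a gene for a protein of the plasma membrane eisosome. That peak began at 2037 to 2134 bp from the PDC6 start. On the other side the nearest peak, which lay toward the catalase gene CTT1, ended at -1211 to -1039 bp. PDC6 thus sat in a peak-free stretch of 3099 to 3271 bp in all 8 libraries.

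ADH1 (YOL086C, chromosome XV, 159548 to 160594, minus strand) was covered almost end to end. Peaks lay over 96.6, 96.3, 93.9 and 94.9% of its body in the YAC libraries (HPRT1R replicates 1 and 2, then HPRT1 replicates 1 and 2), against 95.2, 92.8, 96.5 and 93.7% in the integrated libraries in the same order. The 2 sets of values overlapped, and their mean of 94.99% ± 1.41 (SD, n = 8) was above that of 91.1% of all genes. In 6 libraries a single peak of 2175 to 2361 bp ran from upstream of the start to near the end of the gene. In HPRT1 YAC replicate 2 and HPRT1 integrated replicate 1 the peak was broken at the start, with a gap of 197 and 242 bp. The summit lay 511 to 826 bp from the ADH1 start. Measured from the nearest gene start, 2.22 to 4.73% of the native peaks near gene starts had a summit past 500 bp. The 2 measures differ for the ADH1 summits at 730 to 826 bp, to which the start of MHF1 was nearer.

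The fold of this ADH1 peak was 2.15 to 3.02 and ranked between percentiles 63.6 and 92.1. The lowest fold came from HPRT1R YAC replicate 1 and the lowest percentiles from the HPRT1 integrated libraries. In 7 libraries the mark stopped before the end of ADH1 and began again 1192 to 1202 bp from its start, near the end of MHF1, which runs in the opposite direction. In HPRT1 integrated replicate 1 both stretches were joined in 1 peak.

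ADH2 (YMR303C, chromosome XIII, 873291 to 874337, minus strand) had no peak over its start in any library, and what its window held came from both sides. Downstream, a peak with its summit 1320 to 1875 bp from the ADH2 start, around the start of YME2, was found in all 8 libraries at percentiles of 70.6 to 86.5. It reached back into the last part of the ADH2 body in 6 libraries. Upstream, 7 libraries had a peak with its summit at -194 to -95 bp from the start of UBP15, a ubiquitin protease gene that runs the other way, at percentiles of 8.29 to 36.4. HPRT1 YAC replicate 1 had no peak there. Between these, a stretch of at least 1019 bp that holds the ADH2 start was free of peaks in every library.

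Fermentative genes and their little-used or repressed copies were compared within each library by the share of the window (body plus 500 bp either side) under peaks, in 4 pairs. ADH1 had a lowest value of 80.9%, a median of 89.5% and a highest of 91.0%, against 28.8%, 43.0% and 50.2% for ADH2. PDC1 had a lowest value of 31.5%, a median of 46.5% and a highest of 64.6%, against 2.15%, 5.09% and 5.76% for PDC6. In both pairs the lowest value of the fermentative gene lay above the highest of its copy. On average ADH1 had 88.6% ± 3.27 and ADH2 41.4% ± 8.77, a difference of 47.2 percentage points ± 7.08 (SD, n = 8). PDC1 had 48.8% ± 10.9 and PDC6 4.72% ± 1.15, a difference of 44.1 points ± 11.5 (SD, n = 8). Against PDC5, at 0% in every library, PDC1 was higher by 48.8 points ± 10.9 (SD, n = 8). Each of these was higher in 8 of 8 libraries. For ADH1 against ADH2 and PDC1 against PDC6 the exact two-sided sign-flip permutation test gave p = 0.00781, the smallest that 8 libraries allow (adjusted p = 0.00781 over 4 pairs). All peaks counted for ADH2 and PDC6 had their summits nearest a neighbour's start, and at PDC6 only the edge of the PIL1 peak entered. The ADH1 window also held, in 7 libraries, a separate peak that began 1192 to 1202 bp from the ADH1 start, with its summit nearest the start of MHF1 or DUF1. The difference of ADH1 from ADH2 thus includes peaks of neighbours on both sides. The PDC1 window also held the edge of the TRX1 peak, which began 1956 to 2002 bp from the PDC1 start in all 8 libraries. The sign for PDC1 against PDC6 was thus all but fixed by the peaks in the PDC1 window, this edge among them. Neither p measures a mark of ADH2 or PDC6 themselves. With PDC5 at 0% throughout, the sign of its difference was fixed by the peaks in the PDC1 window, the TRX1 edge among them, and no p is given.

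At the start alone ADH1 exceeded ADH2 by 92.3 points, and PDC1 exceeded PDC6 and PDC5 by 64.7 points each. With ADH2, PDC6 and PDC5 at 0% there in every library, the sign of these differences follows from the peaks at ADH1 and PDC1, and no p is given. PDC5, a fermentative gene, was not above PDC6. In the wide window it was lower by 4.72 points, all of it from the PIL1 peak, and over body or start both stood at 0% in every library. The libraries measure the same genes again, so the p-values speak to how repeatable a difference was. PDC1 and PDC5, and ADH1 and ADH2, are close copies. How the authors treated reads that match more than 1 place is not given in the sources used here, its part in these values was not tested, and the values of such copies are uncertain for that reason.

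**Figure D2:**
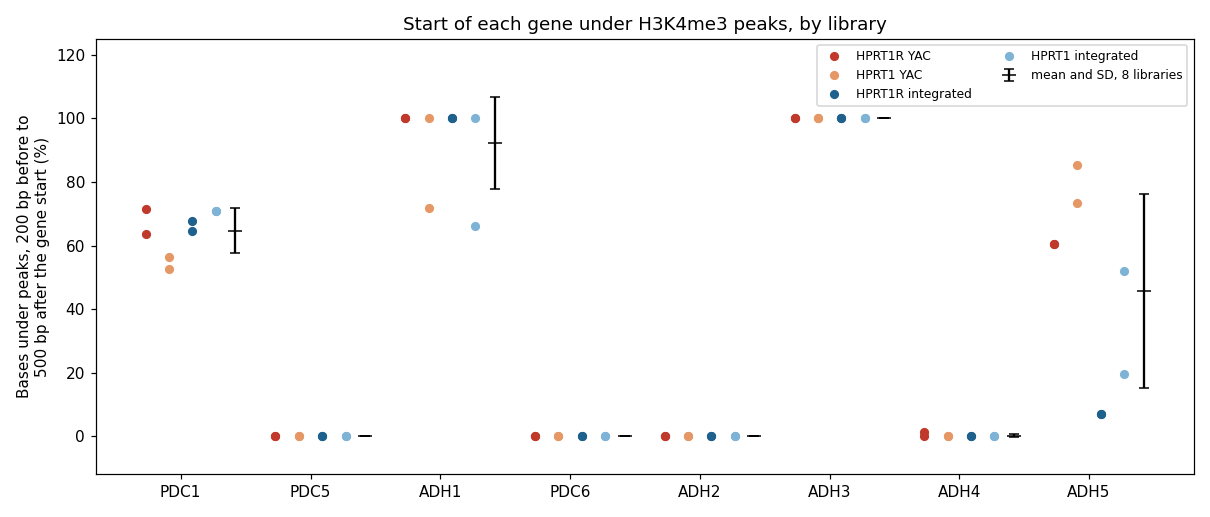
Share of each gene's start (200 bp before to 500 bp after the annotated start) under H3K4me3 peaks, in percent; points are libraries, coloured by group, and the black mark with bars is the mean and SD of 8 libraries. PDC5, PDC6 and ADH2 are at 0% in every library, ADH3 at 100% in every library, and ADH5 has its 4 YAC libraries between 60.5 and 85.4%, above the 4 integrated libraries between 7.13 and 51.9%.

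ADH3 (YMR083W, chromosome XIII, 434788 to 435915, plus strand) had 1 peak in every library, 1039 to 1397 bp wide, spanning the start. Its summit lay at -294 to -259 bp, while 21.5 to 38.5% of native peaks near gene starts had their summit upstream. The peak ended 533 to 801 bp into the gene, so that 59.51% ± 7.005 of the body was covered (SD, n = 8). Its fold was 1.96 to 3.01, at percentiles of 59.7 to 87.7, lowest in HPRT1R YAC replicate 1. Of the 8 genes ADH3 and ADH1 had the highest mean percentiles over the start, at 75.4 ± 9.29 and 79.6 ± 9.77 (SD, n = 8 each).

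ADH4 (YGL256W, chromosome VII, 15159 to 16307, plus strand) lies toward the left end of its chromosome, and in each library 1 peak stood upstream of it. That peak was 576 to 963 bp wide and had its summit at -693 to -441 bp, between the starts of ADH4 and MNT2, a mannosyltransferase gene that runs the other way. It ended at -373 to -191 bp, short of the gene, so that the body had no peak in any library. In HPRT1R YAC replicate 1 the peak touched the 200 bp before the start, covering 1.43% of the start.

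ADH5 (YBR145W, chromosome II, 533762 to 534817, plus strand) had the most variable start. A peak began at -411 to -393 bp in all 8 libraries, with its summit at -279 to -220 bp, nearest to the start of YBR144C, an open reading frame on the opposite strand. Its other edge moved. The peak was 629, 635, 810 and 720 bp wide in the YAC libraries (HPRT1R replicates 1 and 2, then HPRT1 replicates 1 and 2), against 261, 254, 557 and 332 bp in the integrated libraries in the same order. All 4 YAC peaks were wider than any integrated one. They ended at 223 to 398 bp, inside ADH5, whereas 3 of the 4 integrated peaks ended before the gene, at -151 to -63 bp, and the fourth at 163 bp. The folds at this peak were low, at 1.65 to 2.01 and percentiles of 11.8 to 52.0. A second peak, at the start of the mitochondrial ribosomal protein gene MRPS9, had its summit 1506 to 1610 bp from the ADH5 start in every library.

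**Figure D3:**
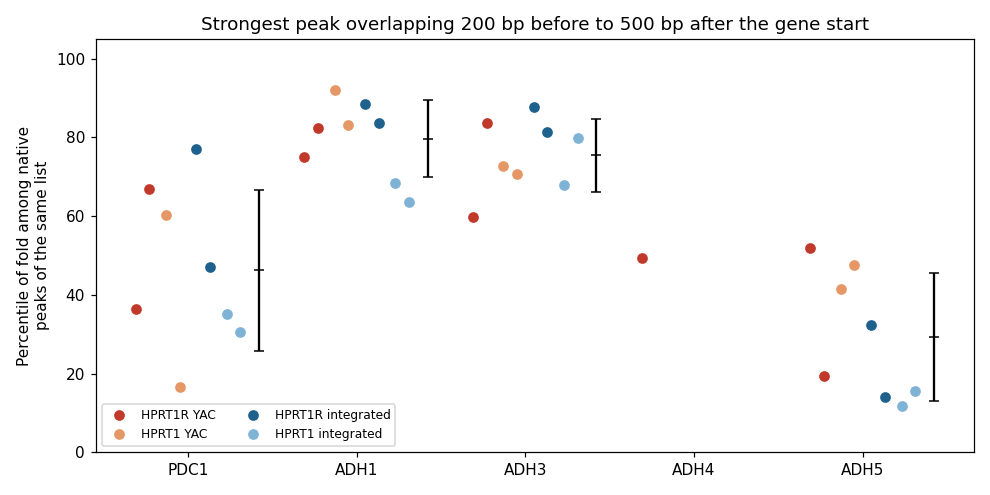
Percentile of fold, among the native peaks of the same list, of the strongest peak overlapping the start (200 bp before to 500 bp after); points are libraries, coloured by group, and the black mark with bars is the mean and SD where 8 libraries had a peak. ADH1 and ADH3 rank between 59.7 and 92.1, ADH5 at 52.0 or below, and PDC1 ranges from 16.5 to 77.0; in HPRT1R YAC replicate 1 the PDC1 point, at 36.4, is the upstream peak.

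YAC and integrated libraries were compared gene by gene by the share of the window under peaks, with limma across the 5490 genes whose value was not the same in all libraries. Over all genes 6 were called higher in YAC (0.109%) and 24 lower (0.437%), and none of the 7 tested PDC and ADH genes was among them. ADH5 came nearest, with a mean share of 41.7% ± 3.81 in the 4 YAC libraries and of 25.4% ± 6.63 in the 4 integrated libraries (SD). The values were 39.3, 38.2, 46.7 and 42.4% in YAC libraries (HPRT1R replicates 1 and 2, then HPRT1 replicates 1 and 2), against 21.01, 21.1, 35.1 and 24.5% in integrated libraries in the same order. Every YAC library lay above every integrated one. The difference was 16.3 points (SE 2.55, limma adjusted p = 0.0645), and its p-value ranked 46 among the 5490. Of the 7 genes it was the only one at an unadjusted limma p under 0.05, as were 11.2% of all genes tested. It was also the only one whose groups did not overlap, with YAC higher, as held for 0.947% of genes, while 6.41% were without overlap and lower in YAC. By the exact two-sided permutation test of 4 against 4 libraries p was 0.0286, the smallest possible and the value that any gene without overlap gets, and 0.388 after adjustment over the 5490 genes. Without HPRT1 integrated replicate 1, the integrated library with the widest ADH5 peak, the difference was 18.7 points (limma adjusted p = 0.0302). Over the other libraries left out in turn, the adjusted p was at least 0.125.

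In the remaining 6 genes the YAC and integrated values overlapped. PDC1 averaged 45.3% ± 13.9 in YAC and 52.4% ± 7.17 in integrated libraries (limma adjusted p = 0.775; SD, n = 4 each). This difference of -7.07 points was -1.36 points without HPRT1 YAC replicate 2, the library with the doubtful label, and -14.6 points without HPRT1 YAC replicate 1. ADH1 averaged 88.0% ± 4.80 in YAC and 89.3% ± 0.875 in integrated libraries (limma adjusted p = 0.90; SD, n = 4 each). ADH2 averaged 39.0% ± 8.94 in YAC and 43.8% ± 9.17 in integrated libraries (limma adjusted p = 0.755), and ADH3 averaged 53.5% ± 3.27 in YAC and 55.8% ± 5.23 in integrated libraries (limma adjusted p = 0.84; SD, n = 4 each). PDC6 had 5.32% ± 0.364 in YAC and 4.12% ± 1.41 in integrated libraries, and ADH4 had 10.5% ± 4.10 in YAC and 9.26% ± 2.65 in integrated libraries (limma adjusted p of 0.696 for PDC6 and 0.90 for ADH4; SD over 4 libraries). PDC5 was at 0% in all 8 libraries and was not tested.

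Between HPRT1R and HPRT1 libraries limma called no gene of the 5490, higher or lower (0.0% each), with 177 (3.22%) at an unadjusted p under 0.05. The exact permutation test per gene called 0, but its smallest p, 0.0286, passes adjustment only if most genes tested reach it. That 0 therefore does not show that differences were absent. Of the 7 tested PDC and ADH genes, ADH2 had the widest gap, with 46.4% ± 7.15 in HPRT1R and 36.4% ± 7.80 in HPRT1 libraries (SD, n = 4 each), a difference of 10.1 points (SE 4.88, limma unadjusted p = 0.0814). ADH5 had 29.9% ± 10.2 in HPRT1R and 37.2% ± 9.75 in HPRT1 libraries (SD, n = 4 each; limma unadjusted p = 0.0276, adjusted p = 1). The groups overlapped in all 7 genes. Over all genes tested, groups did not overlap in 0.291% with HPRT1R higher and in 0.911% with HPRT1R lower. The limma interaction of sequence and configuration passed the threshold in none of these genes, with the lowest adjusted p, 0.322, at ADH4.

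Other genes around these steps were read by the same rule at the start. Of 10 genes that are repressed by glucose in textbook accounts, 8 had no peak over the start in any library, against 14.8% of all genes, among them ADY2 (acetate uptake), CYB2 (lactate use) and FBP1 (fructose bisphosphatase), as for PDC6 and ADH2. MDH2, the cytosolic malate dehydrogenase, was marked in all 8, at a mean percentile of 53.3 ± 15.4 (SD, n = 8). The remaining gene, ICL1, was marked in 5 libraries, with 20.6% ± 28.4 of its start under peaks (mean, SD, n = 8). The median gene of this list had 0% of its start under peaks, against 65.03% over all genes. Their activators ADR1 and CAT8 had a peak in 0 libraries, the only 2 of 10 listed regulators without one, a share near the 14.8% of all genes.

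All 5 genes of the pyruvate dehydrogenase complex, which competes with Pdc1 for pyruvate, were marked in 8 libraries, where 66.5% of all genes were, with PDA1 and PDB1 at mean percentiles of 82.3 ± 10.9 and 67.3 ± 11.8 (SD, n = 8 each). The median start in that list was covered for 98.8%. Of 7 genes that lead from acetaldehyde to acetyl-CoA, ALD6 and ALD5, for aldehyde dehydrogenases, were marked in all 8 libraries, a smaller share than the 66.5% of all genes, at mean percentiles of 75.9 ± 16.4 and 47.7 ± 6.80 (SD, n = 8 each). ACS1, ACS2 and ALD2, 3 of these 7 genes, were marked in 0, against 14.8% of all genes. ACS2 encodes the acetyl-CoA synthetase that cells need on glucose, and ACS1 the one that glucose represses.

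Of 5 other alcohol and butanediol dehydrogenase genes 3 were marked in all 8 libraries, also near the share of all genes, with ADH6 at a mean percentile of 71.9 ± 7.93 and BDH1 at 54.7 ± 18.7 (SD, n = 8 each), and ADH7 in 0. In the decarboxylase family THI3, a thiamine regulator, was marked in 8 libraries (mean percentile 34.1 ± 9.47; SD, n = 8) and ARO10, a phenylpyruvate decarboxylase, in 0. Like ADH7 and ARO10, 14.8% of all genes were marked in 0 libraries. Of 10 regulators 6 were marked in all 8 libraries, near the 66.5% of all genes. Their percentiles were highest for GCR2, a coactivator of glycolytic genes, at 96.0 ± 2.03 and ZAP1, the zinc regulator, at 95.7 ± 0.867 (mean percentile, SD, n = 8 each).

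**Figure D4:**
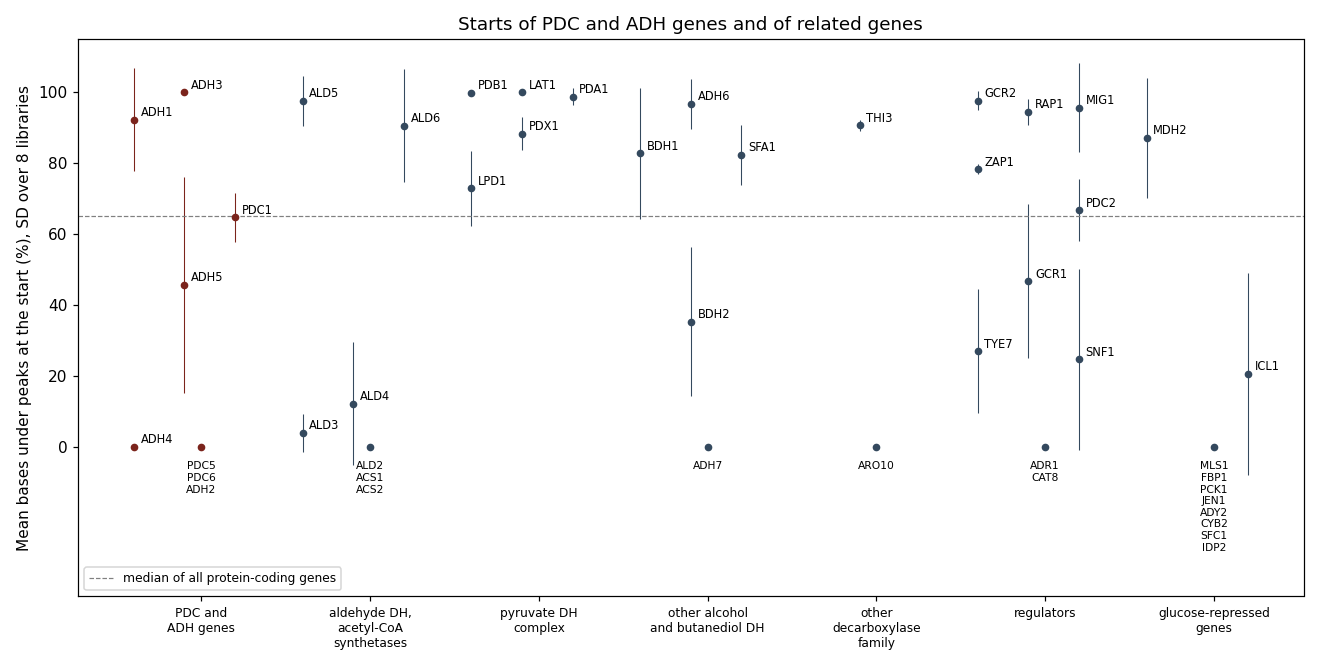
Mean share of the start (200 bp before to 500 bp after) under H3K4me3 peaks in percent, with the SD over 8 libraries, for the 8 PDC and ADH genes and 6 lists of related genes; genes at 0% in every library are named below the zero line and the dashed line is the median of 6002 genes, 65.03%. Of the glucose-repressed genes 8 of 10 stand at 0%, and the 5 genes of the pyruvate dehydrogenase (DH) complex stand at 72.9% or above.

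The layout of peaks along the gene was compared with that of every other gene, as the number of libraries with a peak in each of 150 bins of 10 bp from 500 bp before to 1000 bp after the start. Nearest to ADH1 were SUI1 (translation initiation factor), PGK1 (phosphoglycerate kinase) and SER2 (serine synthesis), at mean absolute differences of 0.1, 0.12 and 0.193 libraries per bin. Nearest to PDC1 were PDI1, YNL040C-A and PRY1, at 0.853, 0.953 and 1.16 libraries per bin. Nearest to ADH2 were REG2, RGI1 and MEI5, at 0.58, 0.80 and 0.88 libraries per bin. Bins share peaks, and the likeness is a description of shape alone.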

How the data were processed

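Per the submitters' processing notes, MACS2 2.1.0, deepTools 3.5.0, SAMtools 1.9, Bowtie2 2.2.9 and bcl2fastq 2.20 were used, with the sacCer3 build. The sources used here do not give the caller's settings, how reads with several matches were handled, or whether IgG served as control. The authors deposited 1 peak list per library, with a fold (ratio of observed to expected pileup), a p-value and q-value as −log10, a score made from the q-value and a summit offset. Read totals are not in such lists. Genes came from the RefSeq table of R64, the assembly that sacCer3 names, with strand read from systematic names; no sequences were at hand.

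Coverage by peaks was computed in Python 3.11.15. Paralogs were compared by exact sign-flip tests over libraries. All genes were fitted in limma 3.58.1 (configuration and sequence as terms, eBayes with a mean trend, Benjamini-Hochberg adjustment, threshold 0.05), a procedure checked on simulated data. Genes with the same value in all 8 libraries were not tested. Groups came from the titles. Nothing in the labels says that replicates were separate cultures, so p-values measure the spread between samples, which may be technical. The genes, the lists of related genes and the tests were chosen with earlier results of these data known. Named related genes were up to 2 with the highest mean percentile among those marked in 8 libraries, and up to 3 marked in none in alphabetical order. ICL1, marked in some libraries only, was named outside this rule. Genes most like PDC1, ADH1 and ADH2 were the 3 with the smallest difference in layout. Alternatives were a −log10 q of at least 5, equal numbers of peaks, other windows, a replicate block and leaving out each library. A planned motif search in promoters was not run.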

Additional observations from a re-analysis of the deposited data

Results flagged for a closer look

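In each set of 4 YAC or 4 integrated libraries, the highest and lowest values of the 8 genes were checked for standing apart from the rest. Such a library was found in 6 of 21 sets with any spread. Chance gives about 1 in 20 sets of independent values, but sets of the same gene share peaks, and in 3 of the 6 the other libraries were tied at 0 or 100%, where any departure stands apart, so that the number of such libraries cannot be read against chance. At ADH1, HPRT1 YAC replicate 2 was low among YAC libraries, with 80.9% of the window and 71.9% of the start under peaks, and HPRT1 integrated replicate 1 was low among integrated libraries, with 66.2% of the start. The 2 low values at the start are the libraries whose peak was broken there. At ADH3, HPRT1R YAC replicate 1 was low among YAC libraries, with 48.6% of the window. At ADH4, HPRT1 integrated replicate 2 was high among integrated libraries, with 13.2% of the window, and HPRT1R YAC replicate 1 was the only YAC library with any of the start under a peak, at 1.43%.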

How the results depend on the processing

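Of the 8 genes, 7 had a peak in all libraries in the wide window, but 3 by the gene body alone, 4 by the start, 4 when the summit had to lie in the window, and 2 when the summit had to lie nearest the gene's own start, a rule chosen after seeing the data. Over all genes the shares were 78.2, 64.6 and 66.5% by the first 3 of these rules. No share over all genes was counted for the 2 summit rules, so those counts cannot be read as a trait of these genes. The differences of ADH1 from ADH2, PDC1 from PDC6 and PDC1 from PDC5 kept their direction under a −log10 q of at least 5, equal numbers of peaks, gene body, start and each library left out. In every library PDC5 stood at 0% in all windows, PDC6 over body and start, and ADH2 at the start. There the direction could not change while ADH1 and PDC1 had peaks, so keeping it adds no support. With replicates averaged first, the differences were 47.2, 44.1 and 48.8 points. For ADH1 from ADH2 and PDC1 from PDC6 the exact sign-flip p was then 0.125, the smallest that 4 values allow. No p is given for differences from PDC5, which had no peak in any library. PDC5 minus PDC6 was 0 over the gene body and over the start, and -4.72 points with replicates averaged. The number of genes called between YAC and integrated libraries was 30. The exact permutation test called 0, but it can call a gene only if most genes tested reach its smallest p, so that 0 does not show that differences were absent. By limma the number was 48 over the gene body and 16 to 50 with a library left out: 50 without HPRT1R YAC replicate 2, 19 without HPRT1 YAC replicate 2 and 16 without HPRT1 integrated replicate 1. With the replicate block it was 23. Deviations of same-numbered samples had correlations of mixed sign (from -0.239 to 0.20), which does not settle whether the numbers mark a batch. HPRT1R minus HPRT1 had 0 genes called under the block. That comparison had 1 gene called at a −log10 q of at least 5, 5 with equal numbers of peaks and 0 to 1 with a library left out (1 without HPRT1 YAC replicate 2 and without HPRT1R integrated replicate 1). For ADH1, YAC minus integrated was -1.28 points but 0.86 over the body, 1.43 at the start and -2.47 to 0.928 with a library left out, never called. With a library left out that difference ran from -14.6 to -1.36 points for PDC1, -8.11 to -1.53 for ADH2, -4.91 to -0.16 for ADH3, 0.0465 to 3.21 for ADH4 and 0.565 to 1.53 for PDC6, none called. Genes at 1 value in all libraries gave no fit over body or start. Peak lists hold no depth where nothing was called, so weak marks at PDC5, PDC6, ADH2 and ADH4 cannot be bounded.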
